A study of Mus musculus with 18 samples.

Results

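The 35 genes described here encode the glucose and lactate carriers, the enzymes of glycolysis, the alpha subunits of the hypoxia-inducible factors (HIF) and a set of genes that these factors are known to induce. They were chosen by symbol from a table of 25791 genes, and each of the 35 symbols was found once. The libraries were made from cross sections of the mouse uterus. Wild-type mice (WT) were compared with mice in which Tsc2 had been deleted in the uterus only (KO), all of the strain mixed 129Sv X C57BL/6 and all 12 weeks old. Tsc2 encodes tuberin, which holds the growth kinase complex mTORC1 in check. Each genotype was sampled in 3 hormonal states: ovaries retained (intact), ovariectomized at 4 weeks of age (ovx), and ovariectomized at that age with a 90-day release pellet of 0.5 mg estradiol carried for 8 weeks (E2). Each of the 6 groups had 3 libraries. Replicate numbers ran 1, 2 and 4 in WT intact and KO ovx, 1, 3 and 4 in KO intact, 1, 2 and 3 in WT ovx and KO E2, and 1, 2 and 5 in WT E2, and the 3 values of a group are given in that order. The promoter that drove the uterine deletion, the stage of the estrous cycle in intact mice and whether each library came from a separate mouse are not given in the sources used here, so the p-values measure only the spread between these libraries.

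Glycolysis splits glucose into pyruvate, and cells that make much lactate pass the pyruvate on to lactate dehydrogenase and export the product through monocarboxylate carriers. Under low oxygen, the HIF alpha proteins escape hydroxylation by the Egln prolyl hydroxylases, which marks them for degradation through the von Hippel-Lindau protein, and they then bind DNA and induce glycolysis genes together with genes for vessel growth and mitophagy. Signalling through mTORC1 is known to raise HIF-1 alpha protein and glycolytic gene expression, and in the uterus estrogen is known to drive growth of the epithelium and glucose use. Protein, lactate and oxygen were not measured, and all values below are transcript levels in FPKM (mapped fragments scaled for the length of the transcript and the size of the library).

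The DNA that HIF binds carries the core ACGTG or GCGTG. In RefSeq (GRCm38.p6), a window of 250 bases before the first listed start was found for 32 of the 35 genes. On either strand, 25 of these 32 windows (78.1%) held at least 1 of the 2 cores, against 38.6% of 27025 genes with such a window. ACGTG was in 17 windows (53.1%, against 16.6% of all) and GCGTG in 17 (53.1%, against 28.2%). A match is only a match of letters, and no binding was measured here. The genes compared against were not matched to the 32 in base composition. Part of the 35 was also chosen as known to be induced by HIF, so the higher share is no independent evidence. The full palindrome of the estrogen response element was in 0 of the 32 windows and in 0.0629% of all. Windows are shown for Ldha and Pgk1, which had among the largest rises under estradiol in WT, for Ldhb, which fell in KO, and for Egln1, whose hormonal response differed between the genotypes. Each is written 5′ to 3′ on the gene's own strand, ends at the base before the start, and has the cores (on either strand) in capitals.
Ldha (plus strand, chr7:46845554-46845803): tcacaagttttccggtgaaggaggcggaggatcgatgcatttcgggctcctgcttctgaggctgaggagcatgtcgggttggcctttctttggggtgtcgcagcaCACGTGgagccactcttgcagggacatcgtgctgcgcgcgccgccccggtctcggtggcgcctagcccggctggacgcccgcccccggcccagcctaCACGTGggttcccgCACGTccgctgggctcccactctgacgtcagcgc
Pgk1 (plus strand, chrX:106186850-106187099): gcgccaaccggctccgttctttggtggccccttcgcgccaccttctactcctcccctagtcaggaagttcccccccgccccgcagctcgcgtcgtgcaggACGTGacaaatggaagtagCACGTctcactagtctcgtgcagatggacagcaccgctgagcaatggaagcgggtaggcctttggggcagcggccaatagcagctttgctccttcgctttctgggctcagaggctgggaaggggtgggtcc
Ldhb (minus strand, chr6:142507958-142508207): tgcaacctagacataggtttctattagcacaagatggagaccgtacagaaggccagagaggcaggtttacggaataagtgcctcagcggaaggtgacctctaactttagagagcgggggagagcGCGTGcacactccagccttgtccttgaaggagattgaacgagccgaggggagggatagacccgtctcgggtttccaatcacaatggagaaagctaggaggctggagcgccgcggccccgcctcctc
Egln1 (minus strand, chr8:124949255-124949504): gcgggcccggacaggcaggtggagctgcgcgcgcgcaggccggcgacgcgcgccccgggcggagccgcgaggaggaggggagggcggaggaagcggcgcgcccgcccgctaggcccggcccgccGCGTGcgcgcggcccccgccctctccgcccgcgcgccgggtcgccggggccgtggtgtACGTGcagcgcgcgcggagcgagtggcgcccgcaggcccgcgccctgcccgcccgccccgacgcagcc
The Ldha window held 5 matches of ACGTG, which begin 145, 144, 48, 47 and 34 bases before the start. Neighbouring pairs are the same palindrome read on both strands. In the Pgk1 window, 2 matches of ACGTG began 150 and 131 bases before the start. Ldhb had 1 match, of GCGTG, at 126 bases, and Egln1 had 1 match of each core, at 126 and 68 bases.

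Facts of the whole series bear on these values as follows. Tsc2 itself lay between 1.62 and 3.49 FPKM and was lower in KO by 0.18 on the log2(FPKM + 1) scale over the 3 states (exact permutation test within states, two-sided p = 0.00275; the smallest p this design allows is 0.00025). In limma over all genes Tsc2 did not pass (mean of the 3 states, adjusted p = 0.158), and the genotypes overlapped in ovx and E2. Low-value steps in the table were used to sort the 18 libraries into 4 sets that share such steps, where 4 was a setting. Pairs of libraries shared 3.56% to 19.6% by this measure within sets. Between sets of the same ovary state they shared 1.78% to 3.98%, so the ranges overlap slightly. No label or header names these sets, and what they stand for is not given. Both intact groups lay in sets 1 and 2 and all other groups in sets 3 and 4, so intact against ovx cannot be told apart from set. A total of 4 libraries were left out together in 1 alternative, a choice made after seeing the data and not by 1 rule: WT intact 4, KO E2 2, KO ovx 4 and WT E2 2, in which a single gene took 26.6% of all FPKM. KO E2 2 correlated with the WT E2 libraries at 0.946 on average, above 0.898 for the other KO E2 libraries. WT intact 1 and 2, which were kept, also correlated more with KO intact (0.927 and 0.937) than with their own group (0.907 and 0.926). KO ovx 4 was nearest to its own group (0.921). All 30 of 30 markers of smooth muscle, epithelium and stroma were above 0 in every library. So were 10 of 10 endothelial, 9 of 9 macrophage and 12 of 13 skeletal muscle markers. A value above 0 therefore does not check the tissue label. In whole tissue, fewer cells of a type and less RNA per cell cannot be told apart.

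Estradiol after ovariectomy went with a broad rise of glycolytic transcripts in both genotypes. In WT, 26 of the 35 genes passed the test (limma on log2(FPKM + 1), adjusted p under 0.05 over 13898 genes), 23 higher and 3 lower in E2 than in ovx. This is 74.3% of the genes, against 47.5% of all genes tested, and for higher levels alone 65.7% against 32.3%. In KO, 20 genes passed, 18 higher and 2 lower, which is 57.1% against 27.1% of all genes, and for higher levels alone 51.4% against 15.9%. The median change of the 35 genes was 1.43 in WT and 1.18 in KO on the log2 scale, beside 0.24 and 0.07 for all genes tested. Every E2 library lay outside the range of the ovx libraries for 33 genes in WT (94.3%, against 66.7% of all genes) and for 26 in KO (74.3%, against 36.3%). The 16 genes that rose in both genotypes were Hk2, Gpi1, Pfkl, Pfkp, Gapdh, Pgk1, Pgam1, Eno1, Pkm2, Ldha, Slc16a1, Slc16a3, Pdk1, Bnip3, Egln3 and Ankrd37.

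**Figure D1:**
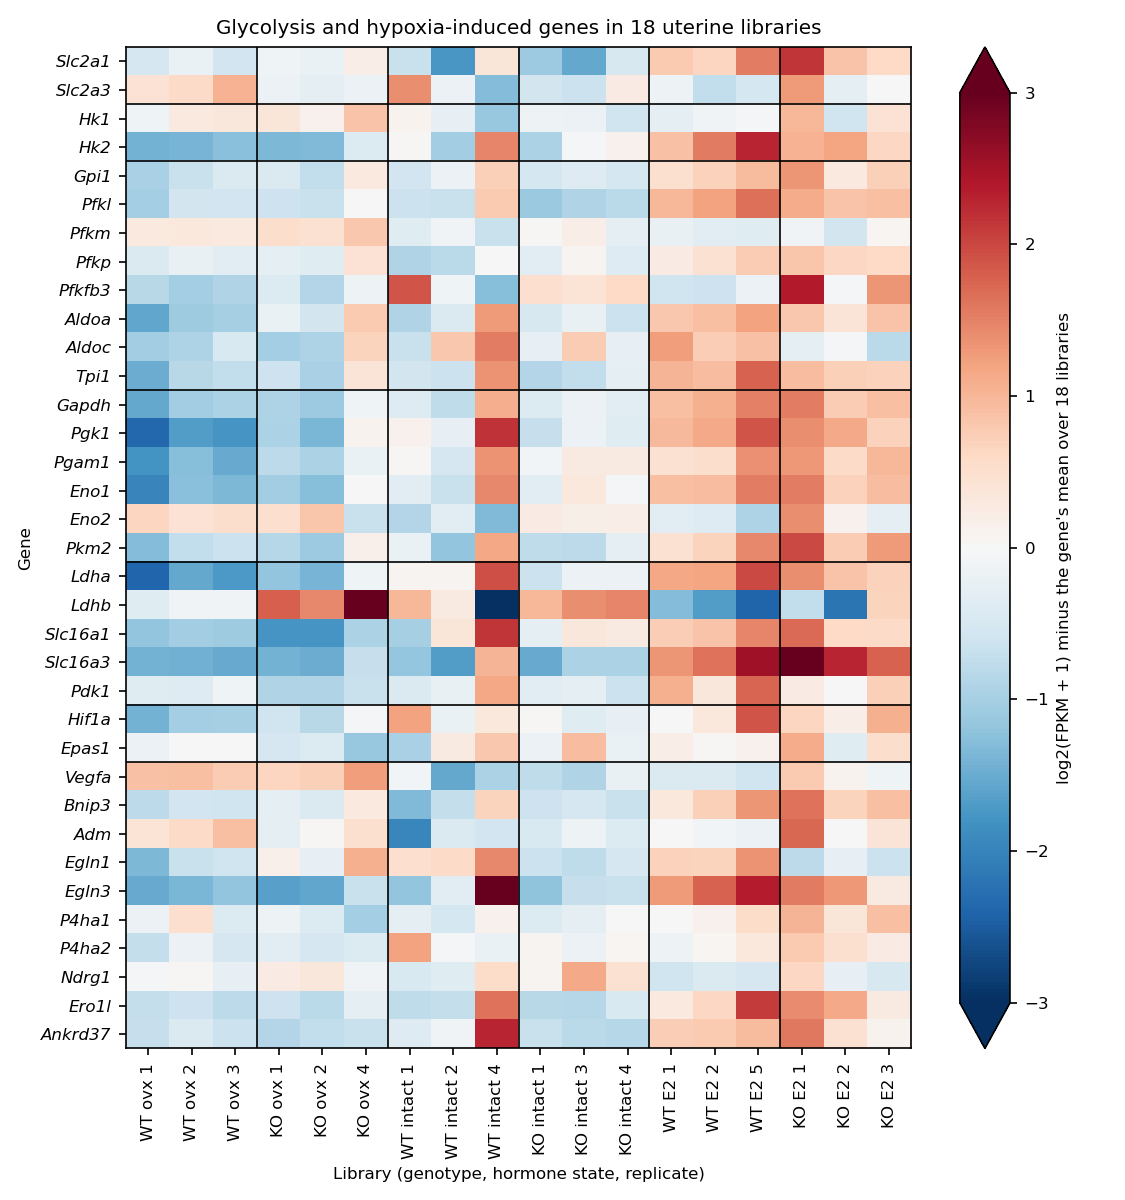
Heat map of the 35 genes (rows, in order of role) in the 18 libraries (columns, by group). Colour gives log2(FPKM + 1) minus the mean of the gene over all libraries, and arrows on the colour bar mark values past 3; the E2 columns are red for most glycolytic genes, and WT intact 4 resembles them.

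The carriers that bring glucose into the cell behaved differently from each other. Slc2a1 (GLUT1), the basal glucose carrier, was at 4.72, 6.03 and 4.44 FPKM in WT ovx and at 12.9, 11.7 and 22.5 in WT E2. It rose by 1.41 ± 0.47 (log2 ± SE, adjusted p = 0.0232). In KO the levels went from 6.42, 5.98 and 8.28 to 34.6, 13.7 and 11.1, without overlap, but the change of 1.24 ± 0.47 did not pass (adjusted p = 0.0637). Slc2a3 (GLUT3), a high-affinity carrier, was at 2.74, 3.16 and 4.75 in WT ovx and at 1.51, 0.684 and 0.95 in WT E2, and passed in neither genotype. Hexokinase traps glucose by phosphorylation, and Hk2 is its inducible form. Hk2 was near the bottom of the range in ovx, at 0.395, 0.418 and 0.584 FPKM in WT and 0.474, 0.497 and 1.84 in KO. Under E2 it stood at 5.89, 9.98 and 17.3 in WT and 6.69, 7.58 and 4.80 in KO. Hk2 rose by 2.93 ± 0.51 in WT (adjusted p = 0.000447) and by 1.98 ± 0.51 in KO (adjusted p = 0.01), while the constitutive Hk1 changed by -0.31 and -0.17 and passed in neither.

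In the upper part of the pathway, which spends ATP to make triose phosphates, phosphofructokinase sets the committed step and is built from liver (Pfkl), muscle (Pfkm) and platelet (Pfkp) subunits. Pfkl rose from 1.91, 3.00 and 2.97 FPKM in WT ovx to 10.9, 12.6 and 17.7 in WT E2, by 2.01 ± 0.32 (adjusted p = 0.000297). In KO it rose from 2.87, 2.74 and 4.88 to 11.9, 9.78 and 10.1, by 1.40 ± 0.32 (adjusted p = 0.00566). Pfkm moved the other way and fell in both genotypes, by 0.60 in WT and 0.80 in KO on the log2 scale. The liver subunit made up 25.5% to 33.7% of the summed FPKM of the 3 subunits in the 6 ovx libraries and 55.7% to 69.3% in the 6 E2 libraries. This share was looked at after its values were seen and was not tested. Pfkfb3, whose product makes the activator of phosphofructokinase, ranged from 3.32, 2.09 and 4.11 in KO ovx to 28.9, 4.52 and 13.3 in KO E2, a wide scatter that did not pass (log2 change 1.70 ± 0.62, adjusted p = 0.0551).

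Aldoa, the main aldolase, and Tpi1, which interconverts the triose phosphates, rose in WT. Aldoa went from 31.8, 45.2 and 47.4 to 169, 179.9 and 224 FPKM, by 2.19 ± 0.44 (adjusted p = 0.00129). In KO it was already at 83.6, 65.3 and 167 in ovx and reached 169, 125 and 174 under E2, groups that overlap, with a change of 0.66 ± 0.44 that did not pass (adjusted p = 0.282). Tpi1 went from 7.82, 12.9 and 13.8 to 48.9, 45.5 and 83.6 in WT, by 2.25 ± 0.47 (adjusted p = 0.00146). In KO its change of 1.18 ± 0.47 did not pass (adjusted p = 0.0729). The difference between the genotypes in the response to E2 did not pass for either gene (log2 difference -1.52 and -1.07, adjusted p = 0.129 and 0.304).

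The lower part of the pathway, which yields ATP and pyruvate, rose almost as a block: in both genotypes 5 of its 6 genes were higher under E2. Gapdh was at 18.1, 26.1 and 27.5 FPKM in WT ovx against 103, 115 and 157 in WT E2 (log2 change 2.34 ± 0.40). In KO it went from 28, 24.9 and 49.5 to 159, 92.3 and 102 (log2 change 1.78 ± 0.40). Gapdh is widely used as a reference gene, and here it was one of the genes that moved. Pgk1, which makes the first ATP of this part, rose from 6.48, 10.9 and 10.3 to 73.7, 82.7 and 141 in WT, by 3.26 ± 0.52 (adjusted p = 0.000267), and from 18.7, 13.8 and 39.9 to 100.3, 83.2 and 60.5 in KO, by 1.82 ± 0.52 (adjusted p = 0.0178). For Eno1, the ubiquitous enolase, the levels were 12.8, 21.7 and 20.5 in WT ovx and 100.1, 102 and 157 in WT E2 (log2 change 2.64 ± 0.47), and 25.3, 21.5 and 54 and 157, 87.1 and 102 in KO (log2 change 1.82 ± 0.47). Pgam1, the mutase, rose by 2.32 in WT and 1.60 in KO. Pkm2, the symbol of the pyruvate kinase gene in this table, rose by 1.75 in WT and by 1.94 in KO. The exception was Eno2, the neuronal enolase, which fell by 1.08 in WT and changed by 0.19 in KO (adjusted p = 0.754). Gapdh and Pgk1 have near-identical copies in the genome whose reads the counting could have split, so their levels are uncertain. Pgk2, the retrogene of Pgk1, stayed at 0.304 to 0.517 of the Pgk1 level across all 18 libraries. It also passed under E2 in WT (3.02 ± 0.52). How much of the Pgk2 level comes from reads of Pgk1 was not tested.

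Genes for the fate of pyruvate and lactate held the largest changes. Ldha, which favours the making of lactate, was at 15.9, 29.5 and 25.7 FPKM in WT ovx and 196, 197 and 344 in WT E2. It rose by 3.31 ± 0.46 there (adjusted p = 0.000145) and, from 37.5, 32.2 and 79.7 to 229.5, 157 and 140.1, by 1.88 ± 0.46 in KO (adjusted p = 0.00819). Ldhb, the heart form, which favours pyruvate, moved the other way. In KO it fell from 91.4, 71.4 and 227 to 15, 4.79 and 41.1 FPKM, by 2.87 on the log2 scale (SE 0.87, adjusted p = 0.0235). In WT it went from 19.7, 23.6 and 23.6 to 9.82, 7.36 and 4.05, without overlap, and did not pass (log2 change -1.59 ± 0.87, adjusted p = 0.141). The ratio of Ldha to Ldhb had a lowest, median and highest value of 0.803, 1.09 and 1.25 in WT ovx, 0.351, 0.411 and 0.451 in KO ovx, 20, 26.8 and 84.9 in WT E2 and 3.41, 15.3 and 32.8 in KO E2. The Slc16a3 gene (MCT4), a lactate exporter, was close to 0 in ovx, at 0.296, 0.284 and 0.222 FPKM in WT and 0.31, 0.248 and 1.17 in KO. Under E2 it reached 7.77, 9.79 and 19.4 in WT and 41.2, 16 and 10.8 in KO. It rose by 3.30 ± 0.57 in WT (adjusted p = 0.000478) and by 3.74 ± 0.57 in KO (adjusted p = 0.000267). Slc16a1 (MCT1), a carrier for lactate and pyruvate in both directions, rose by 2.12 in WT and 2.45 in KO. Pdk1, which shuts off pyruvate dehydrogenase, rose by 1.34 and 1.14. The ratios were chosen after their values were seen and were not tested.

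**Figure D2:**
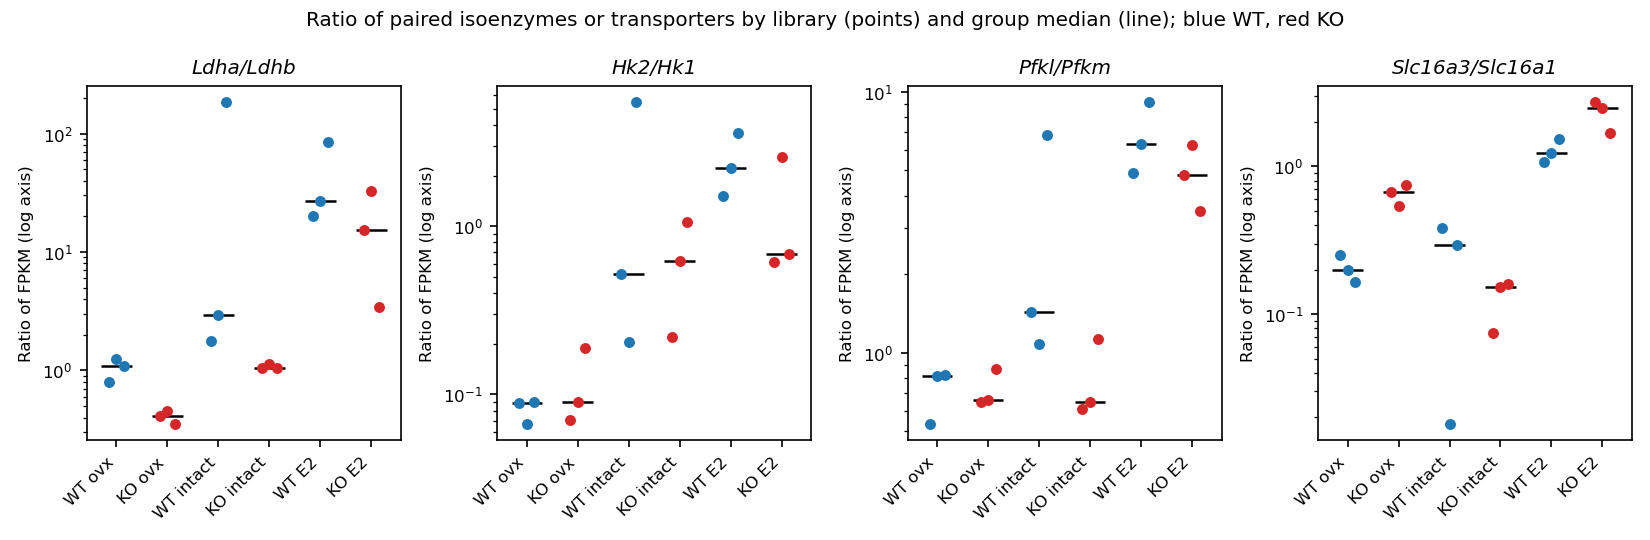
Ratio of FPKM of paired isoenzymes or carriers in each library (points; line, group median; log axis) in the 6 groups. The Ldha to Ldhb ratio is at most 1.25 in all 6 ovx libraries and at least 3.41 in all 6 E2 libraries.

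Among the HIF subunits, Hif1a rose in WT from 4.17, 5.80 and 5.92 to 12.9, 16.1 and 49.8 FPKM, by 1.88 ± 0.43 (adjusted p = 0.00291), with replicate 5 far above the other E2 libraries. In KO it went from 8.19, 6.77 and 12.3 to 20.6, 14.8 and 27.7, without overlap, and did not pass (log2 change 1.12 ± 0.43, adjusted p = 0.0668). Epas1 (HIF-2 alpha) changed by 0.19 ± 0.43 in WT and 1.10 ± 0.43 in KO and passed in neither. The hypoxia-induced genes did not move as 1 block. Egln3, a prolyl hydroxylase, was at 0.726, 0.911 and 1.18 FPKM in WT ovx and 11, 15.7 and 24.1 in WT E2, a rise of 3.15 ± 0.81 (adjusted p = 0.00587). In KO it rose from 0.603, 0.663 and 2.08 to 13.6, 11.1 and 4.96 (log2 change 2.34 ± 0.81, adjusted p = 0.0449). Bnip3, a mitophagy receptor, and Ankrd37 rose in both genotypes by 1.22 to 1.47. The oxidase gene Ero1l rose in WT (1.71), and its change of 1.51 in KO did not pass. The collagen prolyl hydroxylase subunits P4ha1 and P4ha2 rose in KO (1.29 and 0.92), with 0.27 and 0.54 in WT, where neither passed. Vegfa, the vascular growth factor, was at 16.9, 17.1 and 15.6 FPKM in WT ovx and fell to 6.22, 6.23 and 5.45 in WT E2, by 1.33 (SE 0.32, adjusted p = 0.00377). In KO the levels were 14.3, 15.1 and 22.4 and 15.8, 9.57 and 7.97, and the change of -0.62 ± 0.32 did not pass. Neither Adm, the vasodilator adrenomedullin, nor Ndrg1 passed in either genotype. In WT both lay lower in every E2 library than in every ovx library (log2 change -0.71 and -0.42).

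**Figure D3:**
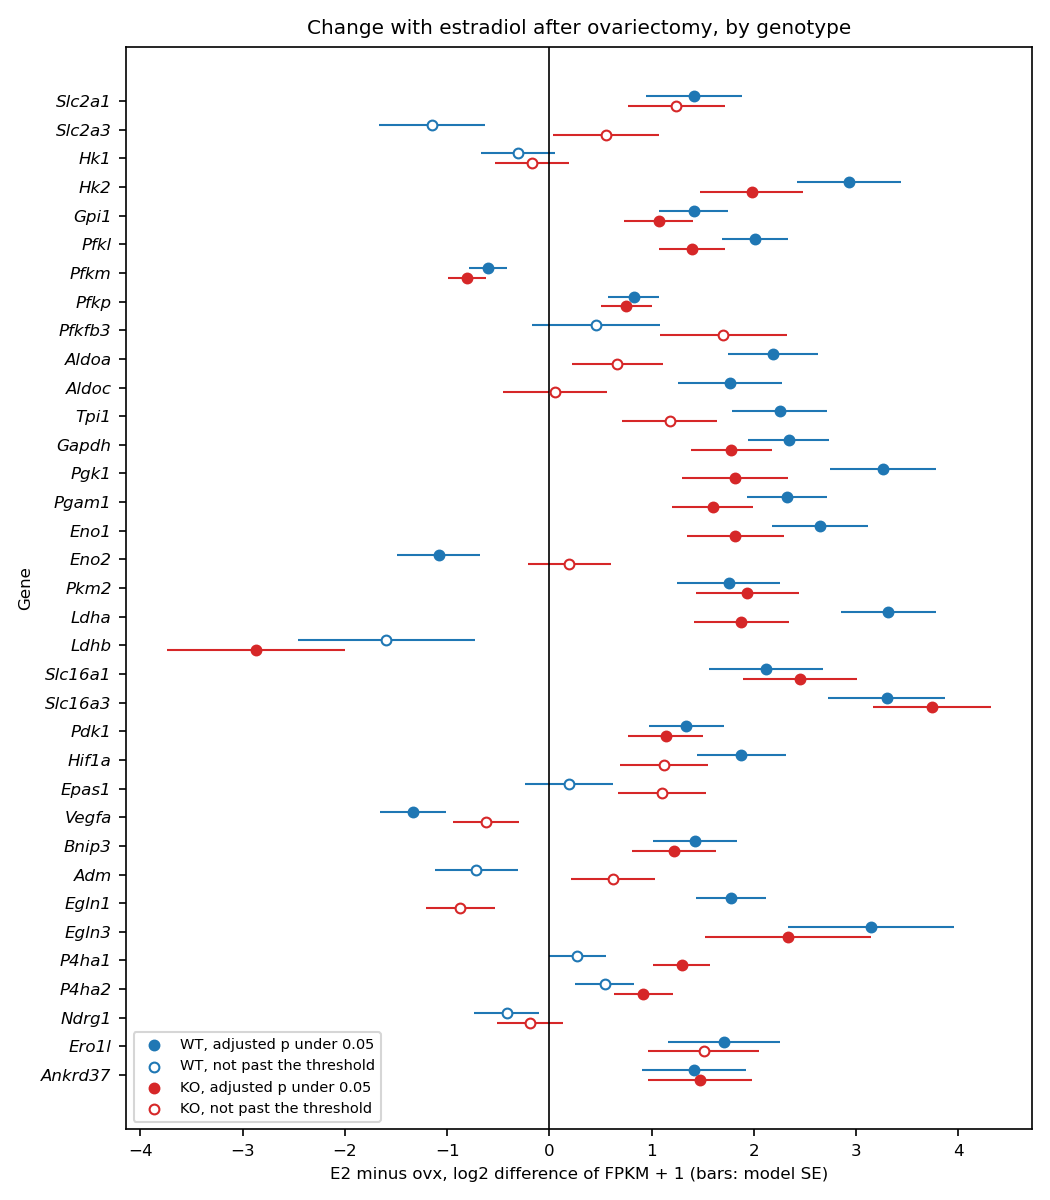
Change from ovx to E2 for each of the 35 genes (rows) in WT (blue) and KO (red), as log2 difference of FPKM + 1 with the model SE as bars; filled points passed the test. Most points lie to the right of 0, while Pfkm, Ldhb and Vegfa are among those to the left in both genotypes. Egln1 lies at 1.78 in WT and -0.87 in KO.

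Limits of this contrast were as follows. With median-ratio scaling, which moved the median of all genes in WT from 0.24 to -0.12, 20 genes were higher and 6 lower in WT (19 and 3 in KO). The share of all genes that passed then rose from 47.5% to 52.5% in WT and from 27.1% to 33.8% in KO. All 3 KO ovx libraries lay in set 3 and 2 of the 3 KO E2 libraries in set 4. Within sets the median change of the 35 genes was 2.00 (set 3) and 1.18 (set 4) in WT and 1.05 (set 3) in KO. Set 3 held 1 E2 library of each genotype and set 4 held 1 WT ovx library. Each of these medians thus rests on 1 library on 1 side. Of the 26 calls in WT, 19 held without any 1 library. The other 7 (Slc2a1, Pfkp, Eno2, Pkm2, Bnip3, Ero1l and Ankrd37) were lost without WT E2 5 at least (adjusted p from 0.0528 for Pkm2 to 0.137 for Eno2). Of these, Ankrd37 was also lost without any other 1 of the 6 libraries, Eno2 without any ovx library or WT E2 2, Slc2a1 without WT ovx 1 or 3, and Pfkp without WT ovx 1. Of the 20 calls in KO, 9 held without any 1 library: Hk2, Pfkl, Pfkm, Gapdh, Pgam1, Ldha, Slc16a1, Slc16a3 and P4ha1. With set as a term, 13 genes passed in KO, where Gpi1 (adjusted p = 0.0753), Pfkp (0.0877), Pgk1 (0.0608), Ldhb (0.0951), Egln3 (0.125), Bnip3 (0.0819), Ankrd37 (0.153) and P4ha2 (0.1) were lost. In WT, Ankrd37 was lost (0.0608). The share of all genes that passed with set as a term is not given here. The count in KO fell to 11 without KO ovx 1, to 11 without KO ovx 2 and to 9 without KO E2 1. In KO, Pgk1 was lost without KO ovx 1 (adjusted p = 0.0634), KO ovx 2 (0.0824) or KO E2 1 (0.0657). Eno1 and Pkm2 were lost without KO ovx 2 (0.0519 and 0.0522) or KO E2 1 (0.0501 and 0.0551). Egln3 was lost without KO ovx 1 (0.129), KO ovx 2 (0.122), KO E2 1 (0.133) or KO E2 2 (0.0962). Ldhb was lost without KO ovx 1 (0.0513), KO ovx 4 (0.0737), KO E2 1 (0.0591) or KO E2 2 (0.0945).

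Markers of cell types moved with estradiol too. Beside the counts below, 47.5% of all genes passed in WT (32.3% higher) and 27.1% in KO (15.9% higher). The smallest counts, such as 1 of 10 endothelial markers higher in KO, do not exceed these shares. In WT, 9 of 10 epithelial markers rose (median log2 change 2.95), 6 of 10 endothelial and 4 of 10 stromal markers fell, and 5 of 8 tested macrophage markers rose. The summed level of the epithelial markers was 59 to 133 FPKM in WT ovx and 801 to 1291 in WT E2. In KO, 0 of 10 epithelial markers passed in limma and 0 had an unadjusted p under 0.05, and their sum was 171 to 562 in ovx and 117 to 831 in E2. There, 8 of 8 tested macrophage and 9 of 10 neutrophil markers rose. The macrophage sum was 22.6 to 36.7 in KO ovx and 554 to 779.6 in KO E2, and the neutrophil sum 22.7 to 291 and 1464 to 14961. In WT, 3 of 10 neutrophil markers rose, with a sum of 18.5 to 26.3 in ovx and 186 to 2597 in E2, and 2 of 10 smooth muscle markers fell. In KO, 5 of 6 tested lymphocyte, 3 of 3 erythrocyte, 2 of 10 stromal, 1 of 10 endothelial and 1 of 7 tested adipocyte markers rose, and 3 of 10 smooth muscle markers fell. In KO the smooth muscle sum was 263 to 1062 FPKM in ovx and 213 to 307 in E2, the erythrocyte sum 22.5 to 47.7 and 82.6 to 592, and the adipocyte sum 15.7 to 152 and 5.42 to 2449.9. None of these markers was at 0 in all libraries of any of the 4 groups. The part of these cells in the rise of the glycolytic transcripts was not tested.

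Egln1 was the 1 gene of the 35 whose hormonal response differed between the genotypes by test. It encodes PHD2, the main oxygen sensor that marks HIF-1 alpha for degradation, and is itself induced by HIF. In WT, Egln1 was at 4.29, 7.43 and 7.91 FPKM in ovx, 18.2, 19 and 35.7 in intact and 20.8, 20.4 and 33.3 in E2. In KO the order was turned: 13.9, 10.4 and 27.3 in ovx, 7.68, 7.02 and 8.47 in intact and 6.89, 10.4 and 7.70 in E2. KO libraries lay above every WT library in ovx and below every WT library in the other 2 states. E2 against ovx gave a rise of 1.78 ± 0.34 in WT (adjusted p = 0.000836) and -0.87 ± 0.34 in KO, which did not pass (adjusted p = 0.0672). The difference of these responses was -2.65 ± 0.48 (adjusted p = 0.00542). Intact against ovx gave 1.72 ± 0.34 in WT (adjusted p = 0.00126) and -0.96 ± 0.34 in KO, which did not pass. The difference of these 2 responses was -2.67 ± 0.48 (adjusted p = 0.0118). Egln1 was the only 1 of the 35 genes that passed for either difference, or 2.86%, against 11% of all genes for E2 and 4.63% for intact. Both differences passed under every alternative setting run and without any 1 library. For intact, 3 genes passed without WT intact 1 (Aldoa, Ldha and Egln1) and 2 without WT intact 2 (Pgk1 and Egln1). Within set 3 the response to E2 was 2.32 in WT and -0.96 in KO, each with 1 E2 library.

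At matched hormonal state, Egln1 was lower in KO than in WT in intact mice (-1.47 ± 0.34, adjusted p = 0.0387) and under E2 (-1.45 ± 0.34, adjusted p = 0.0157). In ovx it was higher by 1.2 ± 0.34 and did not pass (adjusted p = 0.0515). The intact difference was lost without WT intact 4 (0.149), KO intact 1 (0.106), KO intact 3 (0.156) or KO intact 4 (0.0741), and also with set as a term (0.0524), with no filter on low values (0.0546) and with only the groups compared (0.133). The E2 difference was lost without WT E2 5 (0.0822), KO E2 1 (0.0763) or KO E2 3 (0.0564), and also with only the groups compared (0.141). Within sets, the KO minus WT change was -1.55 and -1.32 in intact, 1.30 in ovx, and -1.98 and -1.18 under E2. Of these, -1.32 and -1.98 each compare 1 library with 1. Epithelial markers had median KO minus WT changes of the same signs, 1.45 in ovx, -1.25 in intact and -1.54 under E2, with 1 of 10 higher, 0 of 10 and 1 of 10 lower past the test (in intact, 4 had an unadjusted p under 0.05 in limma). Their sum was 418 to 1583 FPKM in WT intact and 229.8 to 448 in KO intact. In intact mice 1 of 10 smooth muscle, 4 of 10 endothelial and 1 of 3 erythrocyte markers were higher in KO. Their sums did not overlap: smooth muscle was at 74.1 to 471 FPKM in WT and 496 to 1734 in KO, endothelium at 2.64 to 20.4 and 32.7 to 84.5, and erythrocytes at 5.99 to 12.1 and 38.2 to 70. Beside these marker counts, 5.42% of all genes passed between the genotypes in ovx, 2.18% in intact and 8.49% under E2. The part of these cell types in the Egln1 result was not tested.

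**Figure D4:**
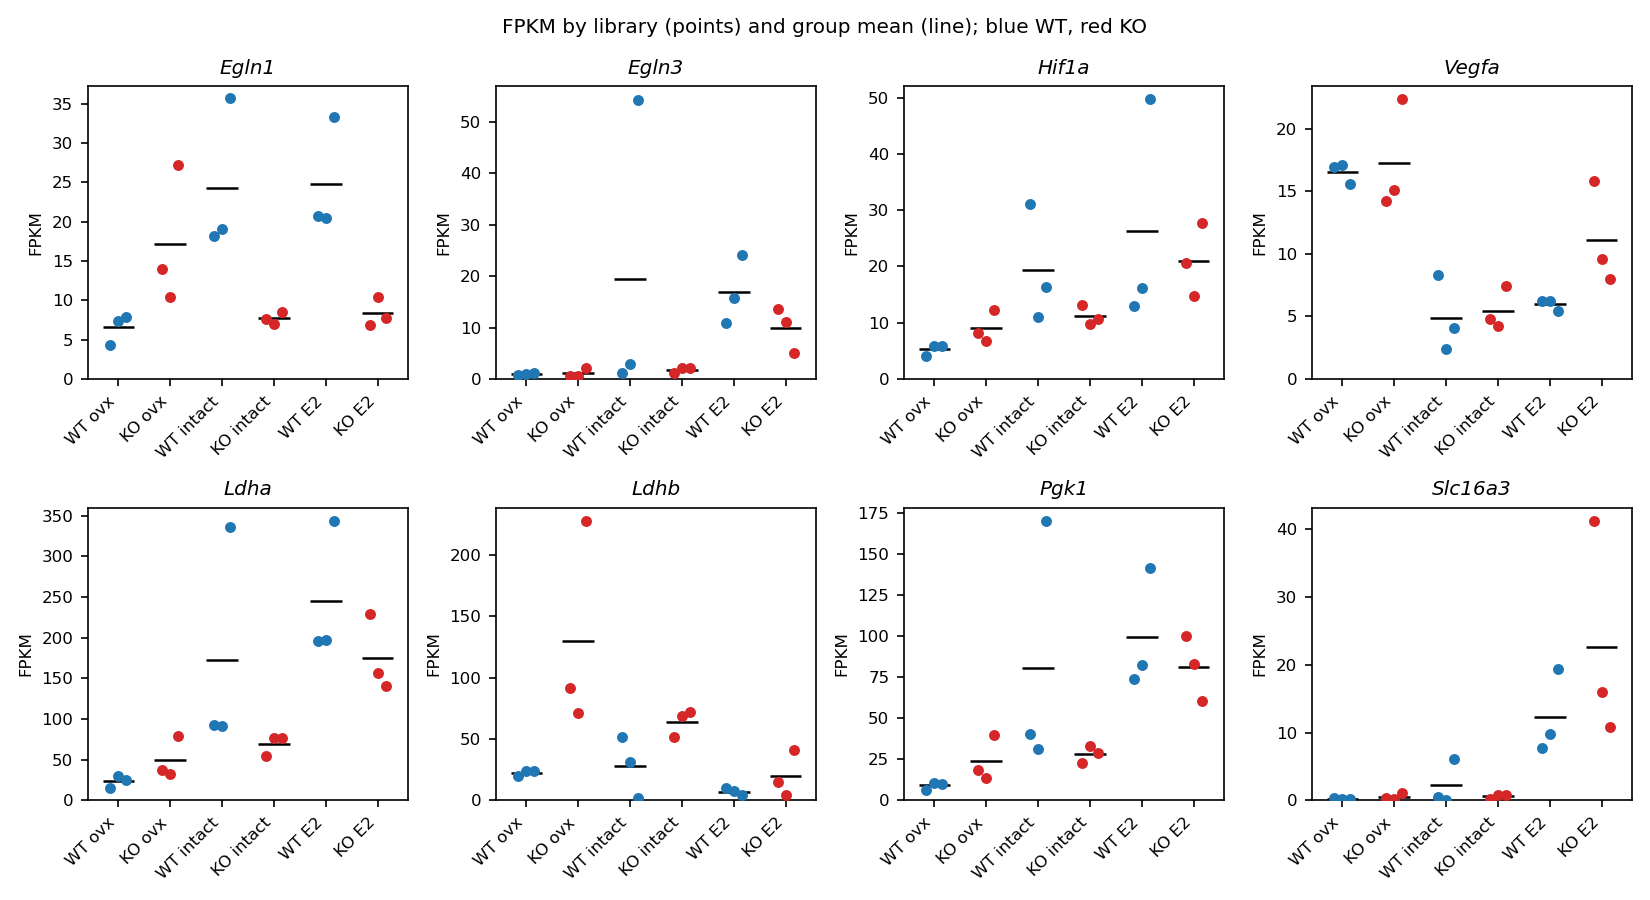
FPKM of 8 genes in each library (points; line, group mean) in the 6 groups, WT in blue and KO in red. Egln1 is higher in KO than in WT in ovx and lower in the other 2 states, and WT intact 4 lies far above the other intact libraries for Ldha, Pgk1 and Egln3.

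Few of the 35 genes passed between KO and WT at matched hormonal state. With 3 libraries per group, a gene that did not pass may still differ. In ovx, 0 passed in limma (5 at an unadjusted p under 0.05), against 5.42% of all genes. In intact mice and under E2, 1 of 35 passed (2.86%), which was Egln1, against 2.18% and 8.49% of all genes. For the mean over the 3 states, 0 passed (7 at an unadjusted p under 0.05), against 5.9%. The libraries of the 2 genotypes did not overlap for 6 genes in intact (17.1%, against 22.8%), 12 in ovx (34.3%, against 40.2%) and 6 under E2 (17.1%, against 22.5%). Ldhb was among the genes without overlap in ovx, at 91.4, 71.4 and 227 FPKM in KO against 19.7, 23.6 and 23.6 in WT. Its difference of 2.31 ± 0.87 did not pass (adjusted p = 0.136). Under E2 it was 1.03 ± 0.87 (adjusted p = 0.543), with 3.06 within set 3 (1 library against 1) and 0.02 within set 4 (2 against 2). For the HIF subunits in ovx, intact and E2, the KO minus WT difference was 0.66, -0.63 and -0.10 for Hif1a and -0.61, 0.15 and 0.30 for Epas1. Vegfa differed by 0.03, 0.23 and 0.75. None of these 9 differences passed. Without those 4 libraries (WT intact 4, KO E2 2, KO ovx 4 and WT E2 2) 6 genes passed under E2 (Hk1, Pfkfb3 and Ldhb higher, Aldoc, Pdk1 and Egln1 lower in KO) and 1 in ovx (Ldhb, higher). The share of all genes that passed in that reduced fit is not given here. These counts therefore do not show a rise particular to the 35 genes. The count for the mean was 3 without WT intact 1, 2 without KO ovx 4, and 1 without WT intact 2, WT intact 4, WT E2 2 or KO E2 2. It was 1 in ovx without KO ovx 2 (Egln1), 2 in intact without WT intact 1 and 2 under E2 without KO E2 2.

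With the ovaries in place, Ldha, Pgk1, Pgam1 and Hif1a were higher than in ovx in WT, and Vegfa was lower in both genotypes. In WT, 16 genes passed between intact and ovx, 12 higher and 4 lower, or 45.7% against 45.3% of all genes, so the count was that of the background. The 4 lower genes were Pfkm, Eno2, Vegfa and Adm. Ldha was at 92.3, 91.2 and 336 FPKM in WT intact, above every WT ovx library, a rise of 2.58 ± 0.46 (adjusted p = 0.000729). Pgk1 was at 40.7, 31.2 and 170.0, also above every ovx library, and rose by 2.61 ± 0.52 (adjusted p = 0.00131). In both genes replicate 4 was several-fold above the other intact libraries. Pgam1 rose by 1.82, Eno1 by 1.68 and Hif1a by 1.59. Of the 6 genes of lower glycolysis, 4 were higher (Gapdh, Pgk1, Pgam1 and Eno1), Pkm2 changed by 0.83 and did not pass, and Eno2 fell by 1.38 (adjusted p = 0.0131). Vegfa was at 8.28, 2.38 and 4.05 in WT intact and 4.79, 4.21 and 7.42 in KO intact, below every ovx library of its genotype, and fell by 1.70 in WT (adjusted p = 0.000975) and by 1.5 in KO (adjusted p = 0.00559). Adm was at 0.4, 3.01 and 2.67 in WT intact against 6.28, 7.12 and 9.10 in WT ovx, and fell by 1.62 (adjusted p = 0.00564). In KO, 2 genes passed, Vegfa and Pfkm, both lower, or 5.71% against 15.9% of all genes.

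The WT count between intact and ovx depended on single libraries: it was 20 without WT intact 1, 10 without WT intact 4 and 9 without WT ovx 1, and 8 of the 16 calls held without any 1 library (Ldha, Pgk1, Pgam1, Pfkm, Hif1a, Vegfa, Adm and Egln1). Without WT intact 4, Eno2 (0.0607), Eno1 (0.0511), Aldoa (0.224), Gapdh (0.155) and Slc16a1 (0.164) were lost, given as adjusted p, and Eno1 (0.0506) was also lost without WT ovx 1. Aldoa and Slc16a1 were also lost without any 1 WT ovx library (adjusted p from 0.0589 to 0.133), and Gapdh without WT ovx 1 (0.108) or WT ovx 2 (0.0502). In KO, Pfkm was lost without any 1 library but KO intact 3 (adjusted p from 0.0582 to 0.153). With median-ratio scaling 13 genes passed in WT, 7 higher and 6 lower, as the median of all genes moved from 0.21 to -0.14. Under that scaling 46.6% of all genes passed. In WT intact, 8 of 10 epithelial markers were higher and 8 of 10 smooth muscle and 9 of 10 endothelial markers lower than in ovx. Of all genes, 45.3% passed in this contrast. The part of these cell types in the result was not tested. The smooth muscle sum was 74.1 to 471 FPKM in WT intact and 715 to 865 in WT ovx.

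Other genes of these pathways were read from 6 lists. The pentose phosphate pathway branches off glycolysis to make NADPH and ribose, and 6 of its 8 tested genes rose under E2 in WT and 5 of 8 in KO (75.0% against 47.5% and 62.5% against 27.1% of all genes). G6pdx, its entry enzyme, went from 2.23, 3.50 and 3.87 FPKM in WT ovx to 28.2, 29.6 and 53.4 in WT E2, by 3.14 ± 0.36 (adjusted p = 4.77e-05), and Taldo1, a transaldolase, from 5.79, 10.7 and 9.61 to 70.1, 61.5 and 71.1, by 2.86 ± 0.37. Of 29 further hypoxia-induced genes, 17 were higher and 1 lower under E2 in WT, and 10 higher and 1 lower in KO (62.1% against 47.5% and 37.9% against 27.1% of all genes). Car12, a carbonic anhydrase, was at 1.74, 2.07 and 1.83 in WT ovx and 73.7, 19.3 and 33.6 in WT E2. Igfbp3, which binds insulin-like growth factors, fell in WT from 81.6, 65.5 and 101 to 5.23, 7.51 and 7.13, by 3.45 (adjusted p = 0.00182). In KO the rise of Hmox1, the haem oxygenase, was 3.77 ± 0.42 (adjusted p = 1.63e-05), from 2.18, 1.59 and 2.89 to 68.2, 18.2 and 60.6 FPKM. Lox, which cross-links collagen, rose by 2.50 ± 0.51. Among 15 other carriers and glycolysis enzymes, 6 were higher and 0 lower in WT and 7 higher and 1 lower in KO (40% against 47.5% and 53.3% against 27.1% of all genes). In KO, 3 passed without KO ovx 1, KO ovx 2 or KO E2 1. Among 16 genes of gluconeogenesis and glycogen, 6 were higher and 1 lower in WT, and 3 higher and 1 lower in KO (43.8% and 25% passed, against the same 47.5% and 27.1%). In KO, 2 passed without KO ovx 1 and 1 without KO E2 1. For pyruvate dehydrogenase and its regulators the counts were 3 higher and 2 lower of 12 in WT (2 in all without WT ovx 1) and 0 higher and 1 lower in KO (41.7% and 8.33% passed). For other HIF pathway factors they were 4 higher and 2 lower of 13 in WT and 0 higher and 2 lower in KO (46.2% and 15.4%). In WT, the shares of these last 4 lists did not exceed that of all genes.

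Between the genotypes, several further hypoxia-induced genes were higher in KO. Over the mean of the 3 states, 5 of 29 further hypoxia-induced genes were higher in KO and 0 lower (17.2%, against 5.9% of all genes). This count was 3 without KO intact 4, WT ovx 1 or WT E2 1, and 8 without KO E2 2. The first of these by size were Lox (1.29 ± 0.29, adjusted p = 0.0191) and Hmox1 (1.22 ± 0.24, adjusted p = 0.0109). Under E2, Hmox1 was at 68.2, 18.2 and 60.6 FPKM in KO and 5.75, 7.02 and 9.10 in WT, without overlap (2.41 ± 0.42, adjusted p = 0.0029). Arnt2, a partner of HIF alpha, was higher in KO by 1.06 ± 0.20 over the 3 states (adjusted p = 0.00734), and Gyg, which primes glycogen, by 0.98 ± 0.16 (adjusted p = 0.00344). Pgf, a placental growth factor of the Vegfa family, was at 6.36, 3.56 and 9.94 FPKM in KO ovx and 0.683, 0.604 and 0.567 in WT ovx, and was higher by 2.15 ± 0.35 (adjusted p = 0.00287). Cited4, which competes with HIF for its coactivators, was at 3.41, 18.7 and 2.67 in KO E2 and 51.6, 41.3 and 47.3 in WT E2, and was lower in KO (-2.80 ± 0.53, adjusted p = 0.0046). Lactate dehydrogenase D (Ldhd) was lower in KO over the 3 states (-0.85 ± 0.19, adjusted p = 0.0186). Car9 was lower in KO than in WT under E2 (adjusted p = 0.0398). In intact mice, Rab20 was lower in KO (adjusted p = 0.0372) and Loxl2 was higher in KO (adjusted p = 0.0474). Car9 was lost without 5 of the 6 libraries compared, and Rab20 and Loxl2 each without 4 of 6. Each other gene result of this paragraph passed without any 1 library. With only the groups compared in the fit, Car9 (adjusted p = 0.173), Rab20 (0.136) and Loxl2 (0.222) were lost. The E2 results of Hmox1 (0.141) and Cited4 (0.143) were lost there too. Under E2, 6 of 10 neutrophil markers and 3 of 6 tested lymphocyte markers were higher in KO than in WT, and 1 of 8 macrophage markers. Of all genes, 8.49% passed in that contrast. For the mean of the 3 states, 4 of 10 neutrophil and 1 of 3 erythrocyte markers were higher, against 5.9% of all genes passed. Under E2, 0 of 10 stromal, 0 of 10 endothelial and 0 of 7 tested adipocyte markers passed in limma (4, 7 and 7 at an unadjusted p under 0.05). The stromal sum was 143 to 212 FPKM in WT E2 and 189.9 to 1049 in KO E2, the endothelial sum 13.6 to 17.2 and 15.7 to 63.1, and the adipocyte sum 3.05 to 49.4 and 5.42 to 2449.9. Each of these pairs of ranges overlapped. The part of these cells in the result was not tested.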

How the data were processed

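RNA from cross sections of mouse uterus was sequenced in 18 libraries of 6 groups (stranded mRNA libraries, single end, per the labels). The deposited table holds FPKM values that the authors made with Cufflinks 2.0.2 and Cuffdiff, per the submitters' processing notes. Aligner, annotation and genome build are not given in the sources used here, and the positions in the table overlap GRCm38 for only 12.3% of 19997 shared symbols, so none is printed. FPKM sums ran from 216032 to 591668 per library; read depth is unknown.

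Here, log2(FPKM + 1) of the 13898 genes with at least 1 FPKM in 3 libraries, which include all 35, was fitted with limma 3.58.1 (R 4.3.3; 1 mean per group, all 18 libraries, empirical Bayes with trend) for 10 comparisons. P-values were adjusted by Benjamini-Hochberg over all 13898 genes, with a threshold of 0.05, and changes understate those of low genes. The fit was tested on simulated data. Named genes were, per comparison, called genes with a group mean of at least 5 FPKM. Of the 35, up to 12 with the largest changes were named, with Hif1a, Epas1 and Vegfa in every case. Between groups, as opposed to the mean of the states or a difference in response, the libraries also had to be without overlap. For genes named in this way, lack of overlap was set by the choice and is no separate evidence. Other called genes are named in counts, and the values given for Slc2a1, Slc2a3, Hk1, Pfkm, Pfkfb3, Bnip3 and the remaining ones were chosen for their roles after values were seen. The genes and lists were chosen with earlier results of these data known. Of the listed symbols, 7 (Tigar, Mpc1, Mpc2, Ak4, Adgre1, Hbb-b2 and Ahsp) did not match a row; older symbols stood in for some. Alternatives were pseudocount 0.1, other filters, median-ratio and quantile scaling, terms for the 4 library sets or for the replicate number, only the groups compared, and leaving out each library.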

Additional observations from a re-analysis of the deposited data

Results flagged for a closer look

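For 12 gene-contrast pairs, the response to a hormonal state differed between KO and WT (limma test of the difference, adjusted p under 0.05). These pairs come from the genes named by rule, so 12 need not be the full count. Of all genes tested, 11% passed for E2 and 4.63% for intact. The pairs therefore do not show that such differences were more frequent here than among all genes. For E2 against ovx, the KO minus WT difference on the log2(FPKM + 1) scale was -2.65 for Egln1 (adjusted p = 0.00542), -4.74 for Cited4 (0.00357), 3.64 for Igfbp3 (0.0378), 1.80 for Pygl, a glycogen phosphorylase (0.0384), -1.53 for Brp44, a subunit of the mitochondrial pyruvate carrier (0.0419), -1.5 for Ugp2, which makes the sugar nucleotide for glycogen (0.0335), and -1.35 for Higd1a (0.0279). Cited4 was at 5.53, 7.38 and 9.82 FPKM in WT ovx and 51.6, 41.3 and 47.3 in WT E2, but at 26.8, 18.5 and 60.2 in KO ovx and 3.41, 18.7 and 2.67 in KO E2. For intact against ovx the difference was -2.67 for Egln1 (0.0118), -3.19 for Pcx, which makes oxaloacetate from pyruvate (0.0447), -2.51 for Rab20 (0.0157), -2.27 for Pgf (0.0225) and -1.84 for Brp44 (0.0346). Egln1 (both contrasts) and Cited4 passed without any 1 of the 12 libraries. The others were lost without 1 to 11 of them, with adjusted p up to 0.122 (Pcx), and Rab20 was lost only without WT ovx 1 (0.0535). Both contrasts share the ovx libraries.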

How the results depend on the processing

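No called change of the 35 genes, nor of the other genes named by rule, turned its direction under any alternative run. Of the calls, 17 of 26 (E2 against ovx, WT), 8 of 20 (KO), 8 of 16 (intact against ovx, WT) and 1 of 2 (KO) held under all alternatives. The count of KO against WT calls in ovx was 0, and 1 with pseudocount 0.1, a filter of 5 FPKM, median-ratio scaling or quantile normalization (Egln1 each time), 3 with only the groups compared and 1 without 4 libraries together (WT intact 4, KO E2 2, KO ovx 4 and WT E2 2). In intact mice it was 1, and 0 with no filter, library set as a term or only the groups compared. Under E2 it was 1, 0 with only the groups compared and 6 without the 4 libraries. For the mean of the states it was 0, 2 with median-ratio scaling, 3 with quantile normalization and 4 without the 4 libraries. Intact against ovx in KO went from 2 to 1 (filter of 5 FPKM), 4 (quantile) and 6 (without the 4 libraries), and in WT from 16 to 9 with only the groups compared. E2 against ovx in KO went from 20 to 13 with library set as a term. The genotype difference in the response to E2 went from 1 to 2 with median-ratio scaling, quantile normalization or only the groups compared. The cause of these changes in count was not tested. Shares of all genes under median-ratio scaling were 8.78% in ovx, 9.09% for the mean and 13.5% for the difference in the response to E2. Those under the other alternatives are not given here. Library set as a term could not be fitted for intact against ovx.

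With each library left out in turn, counts ran from 19 to 25 and from 9 to 20 (E2 against ovx, WT and KO), from 9 to 20 and from 1 to 2 (intact against ovx, WT and KO), from 0 to 2, 0 to 1, 0 to 2 and 0 to 3 (KO against WT in intact, ovx, E2 and their mean), and from 1 to 1 and 1 to 3 (difference in the response to E2 and to intact ovaries). Tsc2 ran from -0.21 to -0.15. Replicate numbers are shared by only 2 libraries per comparison, whose deviations correlated at -0.18 to 0.34, so they do not pair the samples. With the replicate number as a block, counts were 21 and 24 (E2 against ovx, WT and KO), 12 and 3 (intact against ovx), 1, 0, 1 and 0 (KO against WT in intact, ovx, E2 and mean) and 1 and 1 (differences). Among the other genes, Lox (adjusted p = 0.0709) and Pgf (0.0593) were then lost for the mean of the states. Under median-ratio scaling the Tsc2 test gave p = 0.0415 (exact permutation). Depth is unknown, and 3 libraries per group limit the precision.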

Other observations

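Further pairs of related genes, chosen after their values were seen and not tested, differed between states. The ratio of Eno1 to Eno2 had a lowest, median and highest value of 3.74, 6.69 and 7.80 in WT ovx and 78.4, 89.4 and 333 in WT E2, and of 5.35, 8.38 and 69.7 and 24.4, 41.6 and 76.8 in KO, where KO ovx 4 set the highest ovx value. The ratio of Slc16a3 to Slc16a1 was 0.164, 0.2 and 0.249 in WT ovx, 0.537, 0.673 and 0.741 in KO ovx, 1.07, 1.24 and 1.52 in WT E2 and 1.69, 2.48 and 2.72 in KO E2, so that the 4 groups did not overlap. In intact mice it was 0.0179, 0.291 and 0.38 in WT and 0.0746, 0.152 and 0.159 in KO. Over the ovx libraries Slc16a3 lay at 0.222 to 1.17 FPKM and Slc16a1 at 0.46 to 1.57. The ovx ratios thus rest on values near the floor.

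WT intact 4 differed from the other intact WT libraries in many of the 35 genes. Egln3 was at 1.17, 2.89 and 54.3 FPKM in WT intact, Slc16a3 at 0.561, 0.097 and 6.06, Ankrd37 at 0.822, 1.22 and 10.7 and Ldhb at 51.6, 31.1 and 1.82. The summed FPKM of the 35 genes was 0.372% of the total in that library, against 0.203% and 0.146% in replicates 1 and 2 and 0.183% to 0.420% in WT E2.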
